A study of Sus scrofa with 24 samples.

Results

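The thrombospondins are a small family of calcium-binding glycoproteins that cells secrete into the extracellular matrix. The pig FPKM table held 1 row for each of its 5 genes, THBS1, THBS2, THBS3, THBS4 and COMP (cartilage oligomeric matrix protein, also called thrombospondin-5), out of 25462 genes. FPKM counts the sequenced fragments of a gene relative to its transcript length and to all mapped fragments of the library. All 5 genes passed the filter that left 16135 genes for testing, and none of their values was listed at 0. The family was selected on the differences of COMP and THBS4 between intramuscular and subcutaneous cells in these same libraries. Differences between the depots are therefore described below for all 5 genes without a test, whereas changes over time within a depot were tested. The libraries behind the depot differences of COMP and THBS4 also enter their changes over time.

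The cells were primary preadipocytes of Sus scrofa, isolated from 6-day-old Yorkshire piglets and grown in culture. One source was back subcutaneous fat (BF). The intramuscular preadipocytes (IMF) came from the longissimus dorsi, a muscle. Per the study's methods, both tissues were digested with collagenase, the muscle at a higher concentration and for longer. This difference in handling cannot be told apart from the depot. Both were taken on days 0, 2, 4 and 8 of adipogenic differentiation, which gave 8 groups of 3 libraries each (BF-0d to BF-8d and IMF-0d to IMF-8d). All groups past day 0 had received IBMX, which inhibits phosphodiesterases, dexamethasone, a glucocorticoid, and insulin for 2 days. Insulin alone and then growth medium followed. Per the study's methods the cells came from 3 piglets, but the labels do not say that the 3 replicates of a group were separate animals, so that the p-values measure the spread between libraries, which may be technical.

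Thrombospondins fall into 2 subgroups. THBS1 and THBS2 assemble as trimers, bind the receptors CD36 and CD47 and inhibit the growth of blood vessels, and THBS1 also activates latent TGF-beta. THBS3, THBS4 and COMP assemble as pentamers and are known from cartilage, tendon, bone and muscle, where COMP and THBS4 bind collagens and take part in the assembly of fibrils. Mature fat tissue and its stromal cells secrete THBS1, which has been studied as an adipokine.

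On Sscrofa11.1, the build that the authors aligned to, RefSeq placed THBS1 on the minus strand at chr1:131728781-131746098 with 22 exons and THBS2 on the plus strand of the same chromosome at chr1:854473-882467, also with 22 exons. COMP, the shortest of the 5 genes, lay at chr2:59061409-59068951 with 19 exons, and THBS4 lay on the same chromosome at chr2:88729531-88780759 with 23 exons. THBS3 lay at chr4:94612702-94623905 with 23 exons. THBS3 overlapped the antisense long non-coding RNA LOC106510137, and THBS4 overlapped the antisense long non-coding RNA LOC110259409 and a tRNA gene. Whether fragments were counted by strand is not given in the sources used here, so reads of these antisense genes and of THBS3 and THBS4 cannot be told apart.

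The 250 bases before the RefSeq gene start of COMP, THBS4 and THBS1 follow, because COMP and THBS4 rose in intramuscular cells while THBS1 fell. They are RefSeq sequence of Sscrofa11.1, written 5′ to 3′ on the strand of the gene, and capitals mark the motifs searched on both strands. The COMP window is chr2:59061159-59061408 on the plus strand, the THBS4 window chr2:88729281-88729530 on the plus strand and the THBS1 window chr1:131746099-131746348 on the minus strand.
COMP: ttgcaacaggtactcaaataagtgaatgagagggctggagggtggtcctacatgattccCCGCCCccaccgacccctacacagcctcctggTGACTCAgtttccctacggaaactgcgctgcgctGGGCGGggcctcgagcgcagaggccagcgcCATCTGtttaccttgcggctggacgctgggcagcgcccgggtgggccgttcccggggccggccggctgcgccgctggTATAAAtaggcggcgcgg
THBS4: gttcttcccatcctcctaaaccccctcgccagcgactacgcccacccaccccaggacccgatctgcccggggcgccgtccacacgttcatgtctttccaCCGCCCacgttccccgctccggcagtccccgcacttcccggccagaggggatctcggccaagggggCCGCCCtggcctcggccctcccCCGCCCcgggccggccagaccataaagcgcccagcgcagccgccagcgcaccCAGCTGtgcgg
THBS1: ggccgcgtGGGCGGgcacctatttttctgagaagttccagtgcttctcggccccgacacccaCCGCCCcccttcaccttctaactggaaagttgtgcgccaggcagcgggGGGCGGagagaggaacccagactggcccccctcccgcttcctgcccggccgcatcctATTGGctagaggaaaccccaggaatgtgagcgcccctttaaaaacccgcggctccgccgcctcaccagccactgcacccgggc

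In the COMP window, a TATA box (TATAAA) began 18 bases before the gene start. It also held an AP-1 site (TGANTCA), an E box (CANNTG) and 2 GC boxes (GGGCGG). The THBS4 window held 3 GC boxes and 1 E box, and the THBS1 window 3 GC boxes and 1 CCAAT box (CCAAT). Of 19556 windows of the same length before protein-coding genes, 9.77% held TATAAA, 5.27% TGANTCA, 45.9% GGGCGG, 61.9% CANNTG and 31.9% CCAAT on either strand, none of these motifs containing another. The GC content was 66.0% for COMP, 72.8% for THBS4 and 66.0% for THBS1, against a median of 57.6%. A match describes letters in the window and says nothing of binding.

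The sums of FPKM per library ranged from 307967 to 385768, and 9985 to 10858 genes reached 1 FPKM. The read depth is unknown, so no counting interval is given. Replicates of BF-0d and of the 4 IMF groups correlated across genes at 0.987 to 0.994, whereas those of BF-2d, BF-4d and BF-8d reached down to 0.962, 0.965 and 0.969. The third library of BF-4d stood apart, at 0.965 and 0.970 with the others, which correlated at 0.991. In BF-2d the pairs were at 0.976, 0.971 and 0.962, and in BF-8d at 0.969, 0.987 and 0.988, so no library there stood apart as clearly. Results whose calls or signs turned on the third libraries of BF-2d and BF-4d are also given without them. The cells were checked against marker lists. Of 12 matched stromal preadipocyte markers, 11 or 12 averaged at least 1 FPKM in every group, and their summed level was 6883 to 18541 FPKM in BF and 11314 to 21455 FPKM in IMF libraries. Of 15 matched adipocyte markers, 5 to 8 reached 1 FPKM. ADIPOQ (adiponectin) did not exceed a group mean of 0.111 FPKM, nor PLIN1 (perilipin, which coats lipid droplets) 0.0484 FPKM, so these defining adipocyte markers were near 0 in all groups. From day 0 to day 8, 1 of the 10 tested adipocyte genes rose and 1 fell in each depot, against 13.7% of all tested genes called in BF and 9.04% in IMF, with a median of 0.05 in BF and 0.15 in IMF against -0.06 and -0.05 for all tested genes. LPL (lipoprotein lipase) rose from a mean of 2.22 to 422 FPKM in BF (6.98 ± 0.58 from day 0 to day 8, limma adjusted p = 1.47e-08) and from 1.06 to 120.4 FPKM in IMF (5.86 ± 0.58, limma adjusted p = 2.61e-07). The summed level of the adipocyte markers was 108 to 109.9 FPKM in BF-0d and 353 to 711 FPKM in BF-8d, and 134 to 143 FPKM in IMF-0d and 189 to 228 FPKM in IMF-8d. Without LPL it was 106 to 107 FPKM in BF-0d, 76.8 to 100.03 FPKM in BF-8d, 133 to 142 FPKM in IMF-0d and 79.1 to 95.2 FPKM in IMF-8d. PPARG, a transcription factor of fat cell differentiation, fell in BF (-1.04 ± 0.29, limma adjusted p = 0.00610), and SCD, a fatty acid desaturase, fell in IMF (-1.54 ± 0.22, limma adjusted p = 1.23e-05). LPL, PPARG and SCD were named after their values were seen. Of 15 myogenic markers, DES alone reached 1 FPKM, and their summed level was 29.7 to 45.4 FPKM in IMF-0d against 4.60 to 4.95 FPKM in BF-0d. The summed level of 9 matched endothelial and platelet markers was 11.9 to 33.3 FPKM, that of 10 immune markers 3.19 to 19.0 FPKM, and that of 8 cartilage markers 5.05 to 16.1 FPKM.

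THBS1 was the most abundant family member of undifferentiated cells in both depots, and it fell in both, but at different times. In BF-0d libraries it stood at 1105, 1143 and 1028 FPKM, and in BF-2d at 337, 158 and 501 FPKM. The groups did not overlap, and the drop over the first 2 days was 1.87 ± 0.34 on the log2 scale (SE, limma adjusted p = 3.42e-04). Afterwards it stayed low in BF, with 309.7, 157 and 217 FPKM on day 4 and 533, 190.4 and 326 FPKM on day 8. In intramuscular cells THBS1 stood at 1314, 1456 and 1211 FPKM on day 0, at 1028, 946 and 1232 FPKM on day 2, and at 749.9, 785 and 876 FPKM on day 4. It then fell to 152, 237 and 187 FPKM on day 8. That fall was the only called change among its 3 successive intervals in IMF (-2.08 ± 0.34, limma adjusted p = 1.01e-04). From day 0 to day 8 the log2 fold change was -1.76 ± 0.34 in BF (limma adjusted p = 2.52e-04) and -2.80 ± 0.34 in IMF (limma adjusted p = 2.46e-06). Both were called under all 34 alternative settings. The early BF fall lost its call when only the 2 groups compared were fitted (limma adjusted p = 0.0271).

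The timing of the THBS1 fall differed between the depots. Over days 4 to 8 the IMF change lay 2.63 ± 0.48 below the BF change on the log2 scale, and this difference was called (limma adjusted p = 7.44e-04). Over days 0 to 2 the IMF change lay 1.55 ± 0.48 above that of BF without passing the test (limma adjusted p = 0.0386). Without the third BF-2d library, which at 501 FPKM was the highest of its group, it was 1.92 and called (limma adjusted p = 0.00496). Over the whole course the difference was -1.04 ± 0.48 (limma adjusted p = 0.146). In order of level, IMF-0d stood highest, followed by BF-0d and IMF-2d, whose libraries overlapped. IMF-4d came next, and BF-8d, BF-2d, BF-4d and IMF-8d formed a low set in which each group overlapped its neighbour.

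**Figure D1:**
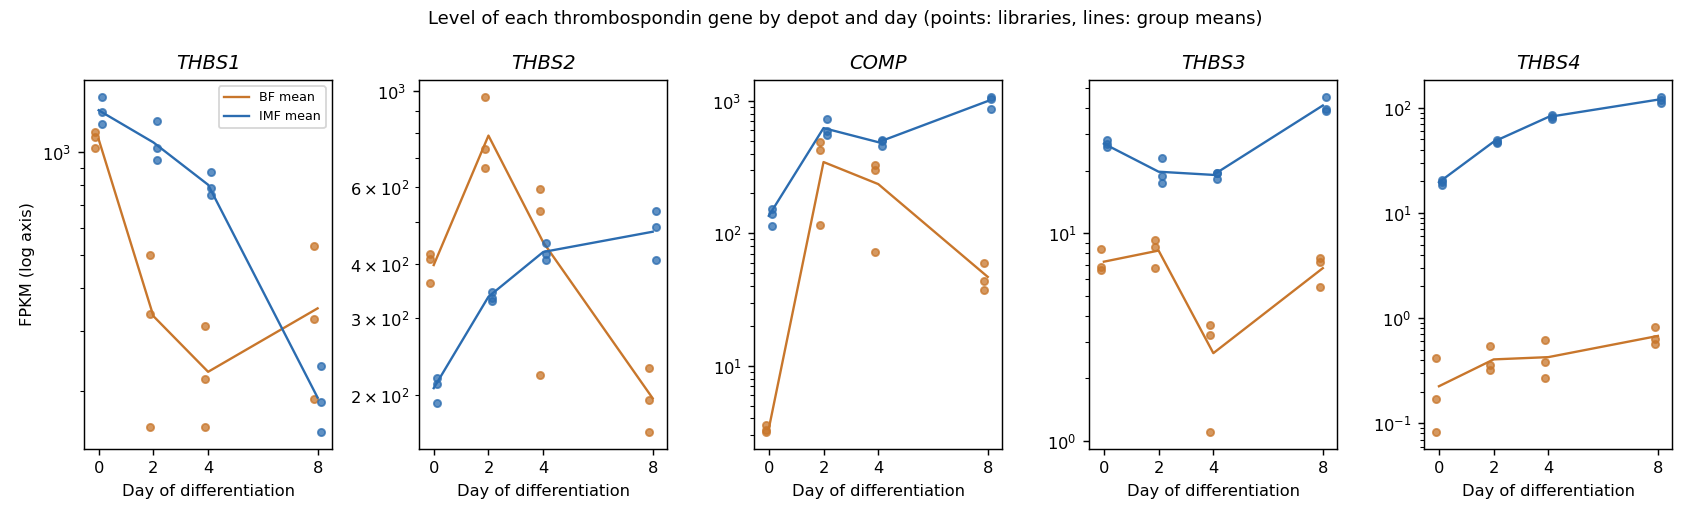
FPKM of the 5 thrombospondin genes on a log axis against the day of differentiation, with 1 point per library (3 per group) and a line through the group means for BF (orange) and IMF (blue); the vertical ranges differ between panels. THBS4 libraries of IMF lie between 18.5 and 128 FPKM and those of BF between 0.0826 and 0.826 FPKM, while the THBS1 and THBS2 lines of the depots cross.

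A list of 9 pericyte and smooth muscle markers was set beside THBS1. Their summed level was 1595 to 1685 FPKM in BF-0d, 25.5 to 86.6 FPKM in BF-4d and 21.9 to 39.4 FPKM in BF-8d. The BF-2d libraries held 76.9, 113.8 and 622 FPKM, the third being also the highest of its group in THBS1. In IMF the sum was 1784 to 2234 FPKM on day 0, 826 to 1141 FPKM on day 2, 1156 to 1197 FPKM on day 4 and 272 to 296 FPKM on day 8. ACTA2, smooth muscle actin, made up 97.2% of the mean sum in BF-0d, 92.4% in BF-2d, 27.0% in BF-4d and 22.2% in BF-8d, and in IMF 95.3% on day 0 and 67.4% on day 8. From day 0 to day 8, 1 of the 9 genes rose and 3 fell in each depot, against 13.7% of all tested genes called in BF and 9.04% in IMF. ACTA2 (-7.92 in BF and -3.29 in IMF) and CNN1 (-4.13 and -3.72), which encode contractile proteins, fell, and RGS5, a pericyte gene, rose (1.92 and 5.03), all 3 named after their values were seen. No marker was at 0 in all libraries of a group. In 4 of the 8 groups (BF-8d, IMF-2d, IMF-4d and IMF-8d) the 3 libraries stood in the same order by THBS1 and by this sum, and in the other groups they did not. The part of this marker list in the THBS1 result was not tested. In bulk RNA, fewer cells of a type and less RNA per cell cannot be told apart.

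THBS2, the closest relative of THBS1, ended the course lower in BF and higher in IMF, after levels that were higher on day 2 than on day 0 in both depots. In BF it stood at 361, 410.2 and 421 FPKM on day 0 and at 971, 663 and 733 FPKM on day 2. All day 2 libraries lay above those of day 0, with a change of 0.97 ± 0.24 that missed the limit of 1 on the log2 scale (limma adjusted p = 0.00447). It was called with median ratio scaling (1.07), without the second BF-2d library (1.09) or the third (1.02), and without the third libraries of BF-2d and BF-4d (1.02), whereas with quantile normalization it was 0.55 (limma adjusted p = 0.0938). BF-4d libraries held 529.5, 595 and 222 FPKM and BF-8d libraries 229.9, 164 and 195 FPKM. The fall from day 4 to day 8 was called (-1.08 ± 0.24, limma adjusted p = 0.00416) although the groups overlapped in the third BF-4d library. The call was lost with median ratio scaling (-0.94), when only the groups compared were fitted (limma adjusted p = 0.153) and when any 1 of 4 libraries was left out, of which the second of BF-4d gave -0.82. In IMF the levels were 211, 191 and 218 FPKM on day 0, 345, 334 and 329 FPKM on day 2, 422, 448 and 408 FPKM on day 4 and 408, 485 and 529 FPKM on day 8. No successive interval was called in IMF for THBS2.

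Over the whole course THBS2 fell by 1.03 on the log2 scale in BF (SE 0.24, limma adjusted p = 0.00158) and rose by 1.19 ± 0.24 in IMF (limma adjusted p = 6.67e-04). The difference between these changes was 2.21 ± 0.34 (limma adjusted p = 1.76e-04) and was called under all 34 alternatives, between 2.09 and 2.33. Over days 4 to 8 the difference between changes was 1.23 ± 0.34 and not called (limma adjusted p = 0.0169), and without the third BF-4d library it was 1.67 and called (limma adjusted p = 1.58e-05). Over days 2 to 4 it was 1.26 ± 0.34 (limma adjusted p = 0.0213), and without the second BF-4d library 1.52 and called (limma adjusted p = 0.00708). Each single change was less firm. The BF change was -0.82 and not called with median ratio scaling, nor was it called without the third BF-0d library (-0.98) or the second BF-8d library (-0.90, limma adjusted p = 0.0112). The IMF rise was 0.93 and not called with quantile normalization. BF-2d held the highest mean of the 8 groups, 789 ± 161 FPKM (SD, n = 3), and did not overlap the next. IMF-8d, BF-4d, IMF-4d and BF-0d followed with overlapping neighbours, then IMF-2d, and IMF-0d and BF-8d were lowest and overlapped.

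COMP, which binds collagens and helps to order their fibrils, was low in undifferentiated BF cells and high in IMF cells at the end of the course. In BF-0d it stood at 3.29, 3.59 and 3.16 FPKM, and in BF-2d at 427, 492 and 116 FPKM, so that the mean was 103-fold higher after 2 days. The log2 fold change of 6.07 ± 0.46 was called (limma adjusted p = 2.09e-08), also under all 34 alternatives, between 5.69 and 6.73. The level did not last in BF. The libraries held 329.8, 303 and 72.9 FPKM on day 4 and 37.2, 59.6 and 43.9 FPKM on day 8. The fall from day 4 to day 8 was 2.05 ± 0.46 in size (limma adjusted p = 0.00390) and left COMP 3.44 ± 0.46 above day 0 (limma adjusted p = 3.88e-06). The fall was not called when only BF-4d and BF-8d were fitted (limma adjusted p = 0.103) or when any 1 of 4 libraries of these groups was left out, of which the first of BF-4d gave -1.67 (limma adjusted p = 0.0308). The third libraries of BF-2d and BF-4d were the lowest of their groups. Without both, the BF changes of COMP were called over the same intervals.

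In intramuscular cells COMP was already present before induction, at 140, 113 and 153 FPKM. It rose to 591, 724 and 555 FPKM on day 2 (2.19 ± 0.46, limma adjusted p = 0.00521), stood at 510.2, 493 and 459 FPKM on day 4 and at 1035, 875 and 1078 FPKM on day 8. The libraries of day 8 were all above those of day 4, with a difference of 1.03 ± 0.46 that missed the call (limma adjusted p = 0.0883). The SE is pooled over all 8 groups, including the BF groups with a wide spread. With only the 2 groups fitted the same difference was called (limma adjusted p = 1.36e-04), as it was without the third libraries of BF-2d and BF-4d (limma adjusted p = 2.06e-05). The rise over the first 2 days, in turn, lost its call when any 1 library of IMF-0d or IMF-2d was left out, at limma adjusted p up to 0.0302 and a change of 2.07 to 2.29, and without the filter on low values (limma adjusted p = 0.0103). From day 0 to day 8 the rise was 2.87 ± 0.46 (limma adjusted p = 5.41e-05), called under all 34 alternatives.

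THBS3, the member known mainly from bone and cartilage, was expressed at a lower level. BF libraries held 8.41, 6.62 and 6.85 FPKM on day 0, 9.33, 8.60 and 6.83 FPKM on day 2, 3.60, 3.24 and 1.10 FPKM on day 4 and 5.51, 7.59 and 7.27 FPKM on day 8. Day 4 was thus a low point without overlap on either side, with a fall of 1.41 (SE 0.20, limma adjusted p = 1.02e-04) and a rise of 1.17 ± 0.20 (limma adjusted p = 5.69e-04). With only the groups compared fitted, neither was called (limma adjusted p = 0.145 and 0.0945), but this fit called 0 of all tested genes over days 2 to 4 and 4 over days 4 to 8, at unchanged fold changes. Without the third BF-4d library, at 1.10 FPKM the lowest of all 24, the rise was 0.81 and not called. In IMF the libraries held 28.0, 26.0 and 27.0 FPKM on day 0, 17.5, 23.0 and 18.8 FPKM on day 2, 18.3, 19.5 and 19.5 FPKM on day 4 and 45.5, 38.7 and 39.4 FPKM on day 8. The rise from day 4 to day 8 was called (1.07 ± 0.20, limma adjusted p = 4.49e-04), and without the first IMF-8d library it came to 0.996, under the limit. Over days 2 to 4 the depots differed in their change by 1.37 ± 0.29 (limma adjusted p = 0.00466). This call was lost when any 1 of 5 IMF libraries was left out, at 1.29 to 1.40, and when only the groups compared were fitted (limma adjusted p = 0.0528). Between day 0 and day 8 THBS3 was not called in BF (-0.09 ± 0.20, limma adjusted p = 0.737) or IMF (0.59 ± 0.20, limma adjusted p = 0.0285), and the BF value changed sign with median ratio scaling (0.08) and quantile normalization (0.03).

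THBS4, a matrix protein of muscle, tendon and nerve, was under 1 FPKM in all 12 BF libraries. It stood at 0.0826, 0.170 and 0.422 FPKM in BF-0d, at 0.539, 0.317 and 0.358 FPKM in BF-2d, at 0.383, 0.625 and 0.268 FPKM in BF-4d and at 0.572, 0.826 and 0.632 FPKM in BF-8d. The day 8 libraries lay above all those of day 0. The day 0 to day 8 difference of 0.46 ± 0.11 was under the size limit (limma adjusted p = 0.00201) on the log2(FPKM + 1) scale, where changes of low values come out too small. It was 1.38 and 1.81 and called with pseudocounts of 0.1 and 0.01. In IMF the libraries held 18.5, 19.7 and 20.4 FPKM on day 0, 49.2, 46.9 and 46.4 FPKM on day 2, 78.3, 84.9 and 81.7 FPKM on day 4 and 118, 112 and 128 FPKM on day 8. The 4 groups did not overlap, and every day stood above the day before. The rise over the first 2 days was called (1.24 ± 0.11, limma adjusted p = 1.15e-06), but not with a pseudocount of 0.01 (limma adjusted p = 0.0447). The later differences of 0.77 ± 0.11 and 0.54 ± 0.11 were under the size limit (limma adjusted p = 0.00318 and 9.31e-04). The whole rise of 2.55 ± 0.11, or 6.10-fold in mean FPKM, was called under all 34 alternatives (limma adjusted p = 2.48e-12).

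**Figure D2:**
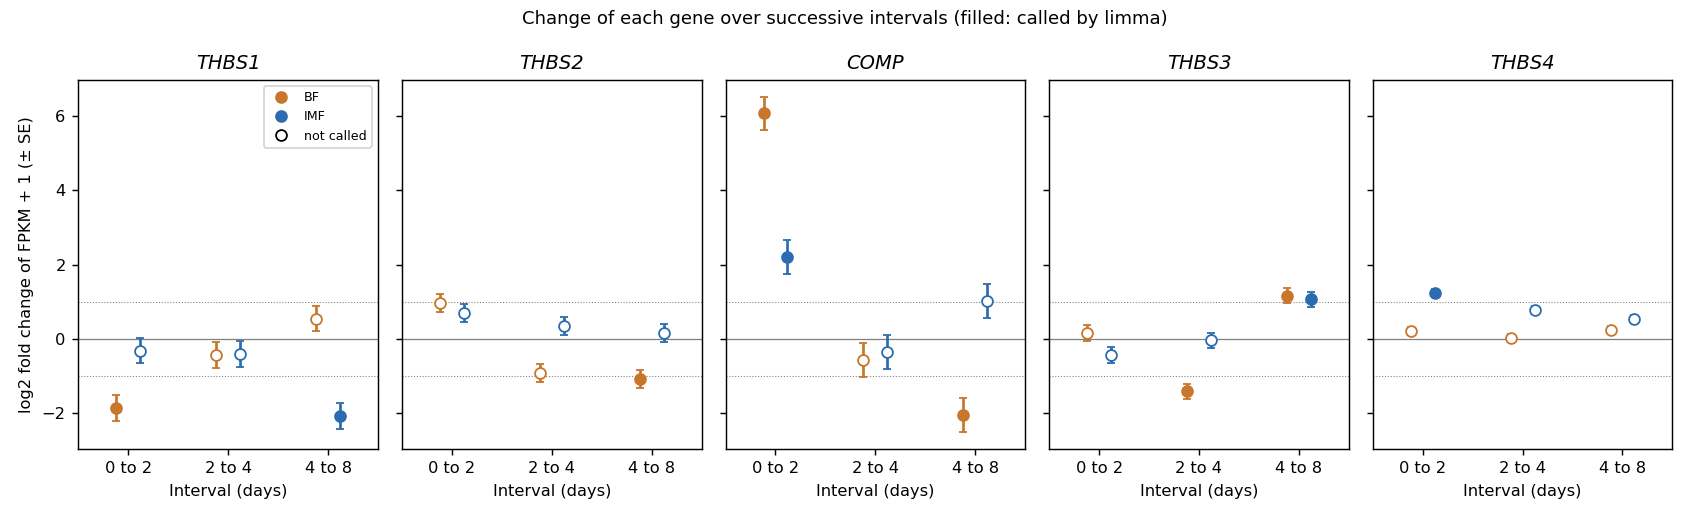
Log2 fold change of each gene over the 3 successive intervals in BF (orange) and IMF (blue), on the log2(FPKM + 1) scale, with the SE from limma as bars, filled points for called changes and dotted lines at the size limit of 1. COMP in BF stands at 6.07 over days 0 to 2 and at -2.05 over days 4 to 8, and THBS1 falls over days 0 to 2 in BF and over days 4 to 8 in IMF.

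Counted over the family, a call required a Benjamini-Hochberg adjusted p under 0.01 over all tested genes and a log2 fold change of at least 1 in size. In BF, 2 of 5 members were called over days 0 to 2 (6.59% of all tested genes), 1 over days 2 to 4 (3.35%) and 3 over days 4 to 8 (2.93%). In IMF, 2 of 5 were called over days 0 to 2 (0.787%), 0 over days 2 to 4 (0.0372%) and 2 over days 4 to 8 (7.25%). For the interval without a limma call, 1 member had an unadjusted p under 0.05, as did 8.34% of all tested genes. Over the whole course, 3 of 5 were called in BF (13.7%) and 4 in IMF (9.04%). The 2 IMF calls over days 0 to 2 were those of COMP and THBS4, on whose depot differences the family was selected. The same libraries enter their changes over time, so nothing is read from these counts against the shares of all genes. Of the 3 members whose differences between changes were tested, 0 were called over days 0 to 2 (2.45% of all genes) with 1 at an unadjusted p under 0.05 (30.2% of all genes), and 1 each over days 2 to 4 (3.06%), days 4 to 8 (6.39%) and days 0 to 8 (4.98%). For COMP, the IMF change minus the BF change was -3.87 over days 0 to 2 and 3.08 over days 4 to 8, and for THBS4 it was 2.09 from day 0 to day 8, all without a test. The 6 calls over the BF intervals rested on the pooled spread, and 1, that of COMP over days 0 to 2, was left when only the groups compared were fitted, a setting in which calls over all genes went from 1063 to 237, from 541 to 0 and from 472 to 4 over the 3 intervals.

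Between the depots, COMP, THBS3 and THBS4 stood higher in IMF on all 4 days without overlap of libraries, while THBS1 and THBS2 changed order. The mean THBS4 level was 86.9-fold higher in IMF on day 0, 117-fold on day 2, 192-fold on day 4 and 176-fold on day 8. These ratios rest on BF values under 1 FPKM, and without the third BF-0d library that of day 0 was 154-fold. On the log2(FPKM + 1) scale the differences were 4.08, 5.11, 5.86 and 6.17, and with a pseudocount of 0.01 they were 6.66, 6.88, 7.63 and 7.46. COMP was 40.5-fold higher in IMF on day 0, 1.81-fold on day 2, 2.07-fold on day 4 and 21.3-fold on day 8. Without the third BF-2d and BF-4d libraries it was 1.36-fold on day 2 and 1.54-fold on day 4, with log2 differences of 0.43 and 0.62 in place of 1.09 and 1.32. Its depot difference was thus wide before induction and at the end, and narrow between. THBS3 was 3.70-fold, 2.40-fold, 7.21-fold and 6.07-fold higher in IMF on the 4 days.

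THBS1 was 1.22-fold higher in IMF on day 0, 3.22-fold on day 2 and 3.52-fold on day 4, each without overlap, and on day 8 the depots overlapped, with the IMF mean at 0.548 of that of BF. THBS2 went the other way, at 0.521 of the BF mean on day 0 and 0.426 on day 2, overlapping on day 4 and 2.42-fold higher in IMF on day 8. On day 4 the log2 difference of THBS2 was 0.05, and it changed sign with median ratio scaling (-0.13) and without the third libraries of BF-2d and BF-4d (-0.40). A difference of at least 1 on the log2 scale without overlap was seen for 3 members on day 0 (3.28% of all tested genes), for 5 on day 2 (5.14%), for 4 on day 4 (11.8%) and for 4 on day 8 (7.33%). Since the family was selected on such differences, nothing is read from these counts. They came to 16 of 20 in all, and to 14 without the third libraries of BF-2d and BF-4d. DES, the myogenic marker, averaged 37.0 FPKM in IMF-0d and 4.68 FPKM in BF-0d, and it averaged 3.85 FPKM in IMF-2d, 11.7 FPKM in IMF-4d and 1.68 FPKM in IMF-8d. Its part in the depot differences was not tested. PAX7, MYF5 and MYOD1, which define muscle precursors, were listed at 0 or under 0.01 FPKM in every group.

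The family as a whole changed its composition, since FPKM is scaled per length and the members can be added up. In BF the summed level was 1500 ± 55.9 FPKM on day 0, 1475 ± 235 FPKM on day 2, 915 ± 353 FPKM on day 4 and 600.2 ± 193 FPKM on day 8 (SD, n = 3). In IMF it was 1716 ± 88.0, 2095 ± 77.1, 1818 ± 34.5 and 1823 ± 120.3 FPKM on the same days. THBS1 made up 72.8% of the family sum in BF-0d and 77.2% in IMF-0d, but 10.6% in IMF-8d. COMP made up 0.223% in BF-0d and 54.6% in IMF-8d, where it was the most abundant member in every library. The ratio of COMP to THBS1 was 0.00298 to 0.00314 in the BF-0d libraries and 3.70 to 6.81 in those of IMF-8d. In BF the libraries held 0.232 to 3.12 on day 2, 0.335 to 1.92 on day 4 and 0.0698 to 0.313 on day 8, so that days 2 and 4 overlapped. The day 2 mean was 1.54 and the day 4 mean 1.11. Without the second library of the group they were 0.749 and 0.700. THBS2 took the largest share in all 3 BF-2d libraries.

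**Figure D3:**
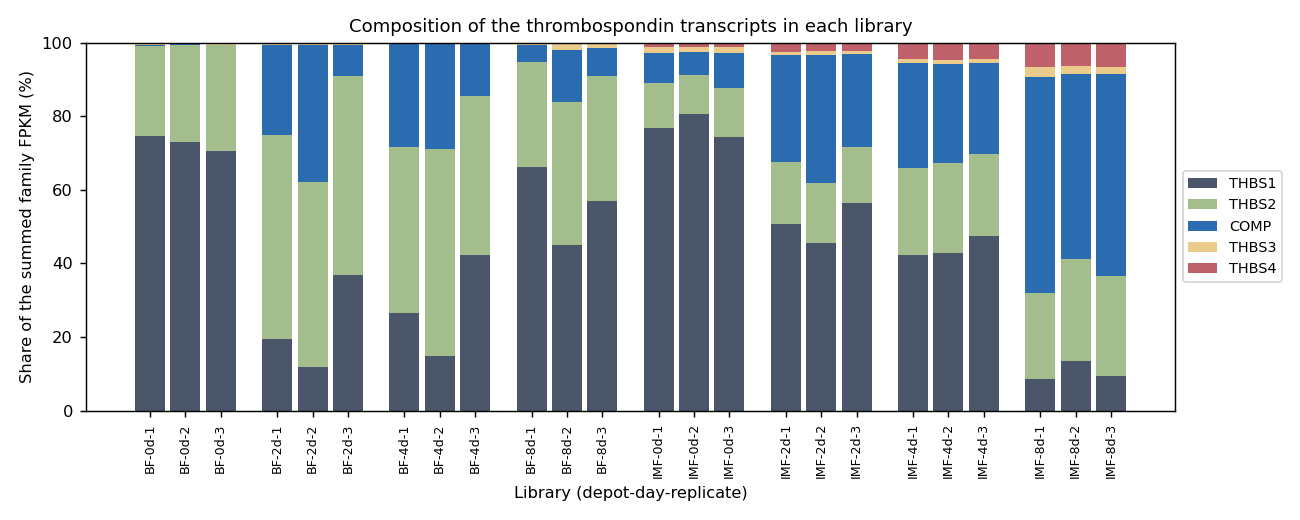
Share of each gene in the summed FPKM of the family, in percent, with 1 stacked bar for each of the 24 libraries in order of depot, day and replicate. THBS1 fills 72.8% of the mean bar in BF-0d and COMP 54.6% in IMF-8d, and the share of THBS4 is visible in the IMF bars alone.

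The genes that encode partners of thrombospondins were taken from 4 lists. In the receptor list, CD36, LRP1 and SDC4 matched no gene ID by symbol and were not analysed here, and 13 of 16 genes were tested. CD47, the receptor that binds the C-terminal part of thrombospondins, was not called in any interval, with group means of 36.7 to 68.3 FPKM. From day 0 to day 2 in BF, ITGAV (-1.45 ± 0.27, limma adjusted p = 4.41e-04), ITGB3 (-1.34 ± 0.32, limma adjusted p = 0.00341) and ITGA3 (-1.22 ± 0.26, limma adjusted p = 0.00113) fell. These were 3 of the 4 receptor genes called over that interval, against 6.59% of all tested genes. They encode integrin subunits, and ITGAV pairs with ITGB3 or ITGB5. ITGB5 was called in 3 intervals. It rose in BF over days 0 to 2 (1.16 ± 0.22, limma adjusted p = 3.95e-04), fell there over days 4 to 8 (-1.34, limma adjusted p = 2.49e-04) and rose in IMF over days 4 to 8 (1.16, limma adjusted p = 3.47e-04). Its group mean was 29.9 FPKM in BF-0d, 76.1 FPKM in BF-4d, 29.0 FPKM in BF-8d and 98.8 FPKM in IMF-8d. The median of the 13 genes was -0.36 over days 0 to 2 in BF, against -0.04 for all tested genes, and 0.00 over days 4 to 8 in IMF, against -0.07. Of the 8 receptor calls over the 6 intervals, 3 were left when only the groups compared were fitted. Those 3 were all in IMF, and none of the BF calls given here was left.

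CALR (calreticulin), named after its values were seen, was the other receptor gene called over days 4 to 8 in IMF, at 1.11 (7.25% of all tested genes called). ITGA3 also fell in IMF over days 0 to 2 (-1.30, limma adjusted p = 0.00326), as the only receptor gene called over that interval (0.787% of all tested genes).

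In the list of proteases that cleave or process thrombospondins and chaperones of their folding, 9 of 10 genes were tested, and ADAMTS1, ADAMTS4, ADAMTS7 and FURIN rose in both depots over the whole course. ADAMTS4 and ADAMTS7 encode matrix proteases, of which ADAMTS7 is known to cleave COMP. ADAMTS4 rose over days 0 to 2 (2.35 ± 0.36, limma adjusted p = 6.25e-05) and 2 to 4 in BF (1.84, limma adjusted p = 0.00129), and over days 4 to 8 in IMF (3.93, limma adjusted p = 1.07e-07). ADAMTS7 rose over days 0 to 2 in BF (1.70 ± 0.28, limma adjusted p = 1.21e-04) and over days 4 to 8 in IMF (2.58, limma adjusted p = 8.42e-07). Its group means were 9.74 FPKM in BF-0d and 67.3 FPKM in BF-4d, and 5.80 FPKM in IMF-0d and 72.4 FPKM in IMF-8d. ADAMTS1, a protease that cleaves THBS1 and THBS2, rose in BF over days 0 to 2 (2.55 ± 0.32, limma adjusted p = 7.99e-06) and fell there over days 4 to 8 (-1.41, limma adjusted p = 0.00475). FURIN, a proprotein convertase, rose in BF over days 0 to 2 (1.51 ± 0.16, limma adjusted p = 7.27e-07) and 2 to 4 (1.41, limma adjusted p = 7.83e-06). With only the groups compared fitted, ADAMTS4 and FURIN over days 0 to 2 were the BF calls left among these, and the IMF calls were kept. From day 0 to day 8, 5 genes of the list rose and 1, the convertase PCSK6 (-2.38, named after its values were seen), fell in BF (13.7% of all tested genes called), with a median of 1.07 against -0.06 for all tested genes, and 4 rose and 0 fell in IMF (9.04%), with a median of 0.67 against -0.05.

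The collagen genes COL1A1 and COL14A1 fell in both depots from day 0 to day 8. In the list of matrix and growth factor partners, 19 of 23 genes were tested, and from day 0 to day 8, 2 rose and 7 fell in BF (13.7% of all tested genes called) while 2 rose and 4 fell in IMF (9.04%). COL1A1, the main fibrillar collagen chain, had group means of 5753 FPKM in BF-0d and 676 FPKM in BF-4d, a fall of 1.10 on the log2 scale over days 0 to 2 (limma adjusted p = 0.00359) and of 2.05 over days 2 to 4 (limma adjusted p = 4.08e-05). In IMF it fell over days 4 to 8 (-1.09 ± 0.27, limma adjusted p = 0.00352). COL14A1, a collagen on the surface of fibrils, changed by -3.97 ± 0.38 in BF (limma adjusted p = 6.47e-08) and by -1.33 ± 0.38 in IMF (limma adjusted p = 0.00981) from day 0 to day 8. MMP2, a gelatinase taken up together with THBS2, rose over days 0 to 2 in BF (1.04 ± 0.18, limma adjusted p = 2.28e-04) and over days 4 to 8 in IMF (1.88, limma adjusted p = 2.17e-07). TGFB2 rose over days 2 to 4 in BF (2.23 ± 0.43, limma adjusted p = 0.00117). With only the groups compared fitted, none of the list's BF interval calls was left, those of COL1A1, MMP2 and TGFB2 included, while those of IMF were kept. The list's median from day 0 to day 8 was -0.26 in BF, against -0.06 for all tested genes, and -0.02 in IMF, against -0.05.

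**Figure D4:**
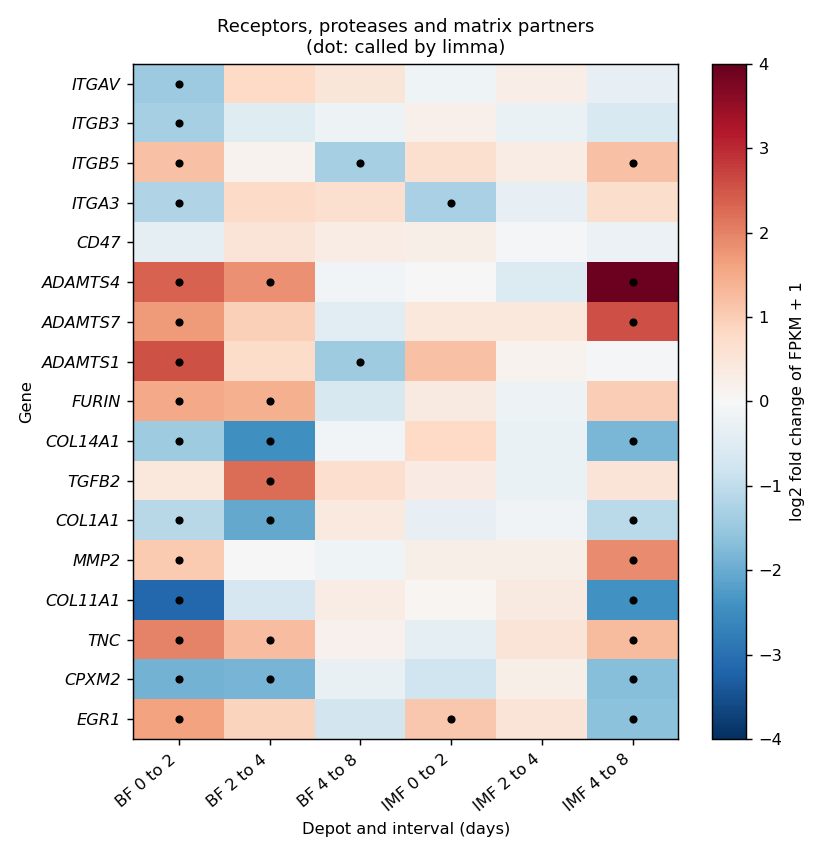
Log2 fold change on the log2(FPKM + 1) scale, by colour, of the genes with the largest called changes in the receptor, protease, matrix and tendon lists, and of CD47, over the 3 successive intervals of each depot, with a dot for each called change. ADAMTS4 stands at 3.93 over days 4 to 8 in IMF and at 2.35 over days 0 to 2 in BF.

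COMP and THBS4 are known from tendon, and a list of tendon and connective tissue fibroblast genes was looked at for that reason. Of 18 genes, 15 were tested. SCX, the transcription factor that defines tendon cells, did not exceed a group mean of 0.409 FPKM, and CILP, a cartilage matrix protein also found in tendon, 0.111 FPKM. MKX, another transcription factor of tendon, averaged 1.92 to 16.1 FPKM in the BF groups and 7.99 to 24.7 FPKM in the IMF groups, and FMOD (fibromodulin, a collagen-binding proteoglycan) 421 to 578 FPKM and 707 to 881 FPKM. From day 0 to day 8, MKX fell in BF (-2.43, limma adjusted p = 1.51e-08) and in IMF (-1.09, limma adjusted p = 3.54e-04). MKX, FMOD, SCX, CILP and TNMD were named after their values were seen. TNMD, a late tendon marker, reached 2.84 FPKM in BF-0d and 2.51 FPKM in IMF-4d. It fell in BF over days 0 to 2 (-1.44 ± 0.17, limma adjusted p = 4.72e-06) and rose in IMF over days 2 to 4 (1.28 ± 0.17, limma adjusted p = 0.00139), as 1 of 6 genes called over that interval. TNC (tenascin C, a matrix glycoprotein) rose in BF over days 0 to 2 (2.00 ± 0.13, limma adjusted p = 3.09e-09) and 2 to 4 (1.22, limma adjusted p = 6.68e-06), and in IMF over days 4 to 8 (1.25, limma adjusted p = 6.31e-07). COL11A1, a chain of fibrillar collagen XI, fell in BF over days 0 to 2 (-3.15 ± 0.28, limma adjusted p = 1.06e-07) and in IMF over days 4 to 8 (-2.43, limma adjusted p = 1.42e-06). CPXM2 fell over the same intervals (-1.89 and -1.69). EGR1, an immediate early transcription factor, rose over days 0 to 2 in both depots (1.597 ± 0.18 in BF and 1.08 ± 0.18 in IMF) and fell over days 4 to 8 in IMF (-1.65). With only the groups compared fitted, EGR1 over days 0 to 2 and TNC over days 2 to 4 lost their BF calls and TNMD over days 2 to 4 its IMF call, and the other interval calls given here for the list were kept. Over the whole course, 3 genes of this list rose and 4 fell in BF, and 2 rose and 3 fell in IMF, against 13.7% and 9.04% of all tested genes called. The medians were 0.04 and -0.02, against -0.06 and -0.05 for all tested genes.

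The genes whose 8 group means ran most like those of a family member were sought among 5396 genes, as a description over 8 points that share libraries. The closest to THBS4 was HOXA5, a homeobox gene of body position (Pearson r = 0.991), with means of 1.19 to 1.99 FPKM in the BF groups and of 6.23 to 13.8 FPKM in the IMF groups, followed by POMP (0.985) and the complement gene C4A (0.977). The closest to COMP was TGFBI, a secreted matrix protein induced by TGF-beta (0.944), with 3.61 FPKM in BF-0d and 103 FPKM in IMF-8d, followed by TKFC (0.942) and MDH1 (0.938). THBS1 ran closest to EPRS1, an aminoacyl-tRNA synthetase (0.989), FBXO7 (0.988) and ACADL (0.982). THBS2 ran closest to TBC1D9B (0.974), MXD4 (0.943) and MFSD3 (0.936), and THBS3 to DAP (0.965), CLEC11A (0.964) and CD9 (0.962). Within the family, r over the 8 group means was 0.882 for THBS3 with THBS4, but -0.0680 over the 4 BF means and 0.286 over the 4 IMF means. For COMP with THBS4 it was 0.691 over all 8, 0.462 in BF and 0.916 in IMF, and for THBS1 with THBS2 it was -0.377, -0.0526 and -0.743. The values over all 8 means hold the depot differences on which the family was selected.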

How the data were processed

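Per the labels and the study's methods, RNA of 24 samples, labelled as mRNA-seq, was sequenced as paired reads. The authors aligned them with HISAT2 to Sscrofa11.1 and quantified genes with StringTie (1.3.4d in the submitters' processing notes). The deposited values are FPKM, already scaled by gene length and mapped fragments, so counts and depth are unknown. All value columns were mapped to samples (0 unmapped). Symbols were matched by Ensembl ID.

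Genes with a summed FPKM over 1 were tested as log2(FPKM + 1) with limma (3.58.1, R 4.3.3, trend and robust), fitting the means of all 8 groups. Calls needed a Benjamini-Hochberg adjusted p under 0.01 and a log2 fold change of at least 1. The study's own test, DESeq2, needs counts and was not used. The script was tested on simulated data. The family, the gene lists and the tests were chosen with earlier results of these data known. Named list genes are the 4 called over successive intervals with the largest changes, plus CD47 among receptors. The cell type markers ADIPOQ, PLIN1, DES, PAX7, MYF5 and MYOD1 were named outside this rule. Any other is marked in the text as named after its values were seen. Alternatives covered the pseudocount, filter, scaling, moderation, replicate block, samples fitted and each library left out. The setting without both replicate 3 libraries of BF-2d and BF-4d was added after seeing the data.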

Additional observations from a re-analysis of the deposited data

Results flagged for a closer look

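The depots differed in their change by a test of the difference itself for 3 member and interval pairs, each given as the IMF change minus the BF change on the log2 scale. For THBS3 from day 2 to day 4 the difference was 1.37, for THBS1 from day 4 to day 8 it was -2.63, and for THBS2 from day 0 to day 8 it was 2.21. Of these, the THBS1 and THBS2 differences were called under all 34 alternatives, and that of THBS3 under 28. COMP and THBS4 were not tested for such differences, since the family was selected on their depot contrasts.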

How the results depend on the processing

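The members' 6 calls over the BF intervals became 1, and the 8 receptor calls became 3, all in IMF, when only the groups compared were fitted. The same setting took the calls over all genes in the 3 BF intervals from 1063 to 237, from 541 to 0 and from 472 to 4, so the loss was not particular to these genes, and the fold changes did not change. In IMF the members' interval calls went from 4 to 5. Calls over all genes in the IMF intervals went from 127 to 167, from 6 to 9 and from 1169 to 1268. The cause was not tested. The 3 called differences between changes (THBS1, THBS2, THBS3) became 5 without the third libraries of BF-2d and BF-4d, where the cause was not tested. With single libraries left out, the members' BF interval calls numbered 4 to 7, IMF interval calls 3 to 4, calls from day 0 to day 8 in BF 2 to 3 and in IMF 4, differences between changes 2 to 4, receptor calls 6 to 11, and depot differences of at least 1 without overlap 15 to 17 of 20 (16 with all libraries).

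Sign changes touched values that were not called. Under quantile normalization, THBS4 from day 2 to day 4 in BF was -0.0612, THBS2 from day 4 to day 8 in IMF -0.0579, THBS3 from day 0 to day 8 in BF 0.0292, and the difference between changes 0.13 for THBS2 over days 0 to 2 and -0.12 for THBS1 over days 2 to 4. Under median ratio scaling, THBS3 from day 0 to day 8 in BF was 0.0820 and THBS2 between depots on day 4 was -0.13. Without the third libraries of BF-2d and BF-4d, the difference between changes was -0.34 for THBS1 over days 2 to 4 and 0.26 for THBS3 over days 4 to 8, and THBS2 between depots on day 4 was -0.40. The cause was not tested. With single libraries left out, COMP from day 2 to day 4 in BF ranged from -1.24 to 0.12, THBS4 over that interval from -0.0815 to 0.0973, THBS3 from day 2 to day 4 in IMF from -0.120 to 0.0703, THBS3 from day 0 to day 8 in BF from -0.170 to 0.0293, THBS1 between changes over days 2 to 4 from -0.34 to 0.50, THBS3 between changes over days 4 to 8 from -0.31 to 0.26, and THBS2 between depots on day 4 from -0.40 to 0.31. Both scalings moved the median log2 fold change of all genes by at most 0.09.

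Libraries with the same replicate number did not deviate together throughout (correlations from -0.25 to 0.46), so the numbers were not taken to pair them. The highest values, 0.32 and 0.46, were those of replicates 2 and 3 between IMF-0d and IMF-8d. This check does not exclude a pairing. With a replicate block, the members were called 6 times over the BF intervals, 4 times over the IMF intervals, 3 and 4 times from day 0 to day 8 in BF and IMF and 3 times for differences between changes, with 8 receptor calls, and no member's call changed. Over all genes, calls went from 1063 to 1054 for days 0 to 2 in BF and from 395 to 328 for the difference between changes over that interval. Read depth is unknown, so the precision of low values such as THBS4 in BF is known from the spread of libraries alone.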
